A study of Mus musculus with 6 samples.

Results

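Circular RNAs (circRNAs) of 10 genes of TGF-beta and BMP signalling were examined in mouse aorta: the receptors Tgfbr1, Tgfbr2, Bmpr1a, Bmpr2, Acvr1 and Acvr2a, and the signal transducers Smad2, Smad3, Smad4 and Smad5. Their circRNAs were taken as every entry of the deposited circRNA table whose host gene was one of the 10, after Ensembl identifiers had been matched to gene symbols. This gave 30 of the 10023 entries and 212 of the 37393 back-spliced reads, from 8 of the 10 genes. Smad5 and Bmpr2 had no entry, and no entry of another host gene lay inside either locus. Over all 6 aortas, 0 of 37393 reads allows a share of up to 0.00802% for each.

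The study sequenced total RNA from the aortas of male ApoE-/- mice, which lack apolipoprotein E and develop atherosclerotic plaques. The labels give the strain as C57BL/6 and do not mention the ApoE genotype, which comes from the study's methods. Mice entered the diets at 6 weeks of age and stayed on them for 12 weeks, and the labels give 3 libraries from a high-fat diet (HFD) and 3 from a chow diet (normal diet in the labels). Both groups carried the same deletion and differed in diet. Whether each of the 3 libraries of a diet came from 1 mouse or from pooled aortas is not given in the sources used here, so each library is called an aorta and p-values measure the spread between these samples.

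TGF-beta and BMP ligands bind a pair of type II and type I receptor kinases on the cell surface, and the type I receptor phosphorylates receptor-regulated Smads. Smad2 and Smad3 carry TGF-beta and activin signals, Smad1, Smad5 and Smad9 carry BMP signals, and all of them join the common partner Smad4 to act on genes in the nucleus. In the arterial wall the pathway is known for its part in smooth muscle contractility, matrix production and endothelial integrity. A circRNA forms when the end of an exon is joined back to the start of the same or an earlier exon, and it is counted by reads that span this back-splice junction, so the level of a circRNA is not the level of its host mRNA. In bulk aorta, fewer cells of a type and less RNA per cell cannot be told apart.

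To show which join each count stands for, the back-splice junctions of 5 members are printed, each from the most-read circRNA of its gene where the circle held coding sequence alone. Each is 60 bases of GENCODE transcript sequence for GRCm38 with 30 bases on each side of the join. Lower case marks the end of the last exon and capitals mark the start of the first exon, which follows it only in the circle.
Acvr2a, mmu_circ_0001017, exon 4 to exon 2: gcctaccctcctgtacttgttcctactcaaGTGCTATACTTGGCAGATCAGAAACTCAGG
Tgfbr2, mmu_circ_0001853, exon 4 to exon 3: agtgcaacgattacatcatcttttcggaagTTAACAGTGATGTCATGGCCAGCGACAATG
Tgfbr1, mmu_circ_0011654, exon 4 to exon 2: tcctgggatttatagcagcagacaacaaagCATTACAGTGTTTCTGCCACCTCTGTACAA
Smad3, mmu_circ_0015778, exon 4 to exon 2: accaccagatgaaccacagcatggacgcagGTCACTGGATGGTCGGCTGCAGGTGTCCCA
Acvr1, circRNA5612, exon 9 to exon 4: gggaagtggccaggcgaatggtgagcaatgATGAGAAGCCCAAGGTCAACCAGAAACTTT

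In GRCm38 coordinates the Acvr2a circle spans chr2:48870289-48873473 on the plus strand and the Acvr1 circle chr2:58458885-58479928 on the minus strand. The Tgfbr2 circle spans chr9:116129816-116131713 and the Smad3 circle chr9:63666148-63667922, both on the minus strand, and the Tgfbr1 circle spans chr4:47383749-47396585 on the plus strand. All 5 begin and end at annotated exon edges and hold only coding exons. Exon numbers of Acvr1, which differ between its transcripts, follow ENSMUST00000056376.11. The Acvr2a circle is 473 nt long when its exons are joined and covers residues 19 to 176 of the 513-residue receptor. The Tgfbr2 circle is 360 nt and covers residues 57 to 177 of 592, and the Tgfbr1 circle is 720 nt and covers residues 29 to 269 of 503.

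The depth of the 6 libraries set how far the diets could be compared. Back-spliced reads numbered 4694 to 5621 across HFD aortas and 7142 to 7585 across chow-fed aortas. A floor of 3 reads corresponded to 40.7 to 52.0 SRPBM (the authors' unit, back-spliced reads divided by a depth for each library). That depth was 57.7 to 60.3 across HFD aortas and 69.8 to 73.7 across chow-fed aortas, in a common unit. The groups overlapped in neither measure. Every HFD library also held fewer back-spliced reads per unit of depth than any chow diet library. A share of back-spliced reads leaves this shortfall out, and its cause was not tested. Among lists of cell type markers, back-spliced reads of smooth muscle genes made up 0.412% ± 0.0917 (SD, n = 3) of the HFD libraries and 0.839% ± 0.150 (SD, n = 3) of the chow diet libraries. Of the 12 smooth muscle genes 9 had entries, with 21, 27 and 15 reads across HFD aortas and 67, 48 and 72 across chow-fed aortas, and the contractile markers Cnn1, Tagln and Actg2 had none. Macrophage and leukocyte genes (8 of 11 with entries, Cd68, Cd74 and Trem2 without) had 8, 20 and 10 reads under HFD and 13, 6 and 8 under chow feeding, and adipocyte genes (6 of 9, Adipoq, Plin1 and Cidec without) had 7, 7 and 6 against 15, 26 and 15. Fibroblast genes (4 of 8) had 1 to 6 against 0 to 2 reads, endothelial genes (4 of 8) 3 to 8 against 2 to 7, skeletal muscle genes (2 of 10) 0 to 9 against 0 to 4, and neural and glial genes (3 of 8) 0 to 5 against 3 to 5. The part of these differences in the results for the pathway genes was not tested.

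Smad4 supplied most of the back-spliced reads of the 10 genes. Its 12 entries held 150 of the 212 reads (70.8%), which put it at rank 19 among 3981 host genes by reads and at rank 35 by number of entries. Acvr2a followed with 31 reads in a single entry, at rank 217. The other 6 genes with entries shared 31 reads, namely Tgfbr2 11, Bmpr1a 9, Smad2 5, Tgfbr1 4, and Acvr1 and Smad3 1 each. The median host gene of the table had 3 reads and 2 entries.

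The share of the back-spliced reads taken by the 10 genes together overlapped between the diets. Their reads numbered 22, 33 and 25 across HFD aortas and 27, 55 and 50 across chow-fed aortas. As a share of each library this was 0.469% (95% Wilson interval 0.310 to 0.709), 0.587% (0.418 to 0.823) and 0.513% (0.348 to 0.756) under HFD. On the chow diet it was 0.356% (0.245 to 0.517), 0.770% (0.592 to 1.00) and 0.669% (0.508 to 0.881). The intervals cover counting error only. The chow diet aortas held both the lowest and the highest share, and the means of 0.523% ± 0.0598 and 0.598% ± 0.216 (SD, n = 3 each) differed by less than the spread of the chow diet group.

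No member gene met the study's criteria of an unadjusted p under 0.05 and a log2 fold change beyond 1 in either direction. Reads were summed over the entries of each host gene and compared by edgeR's quasi-likelihood test over the 2240 host genes with reads in at least 2 aortas. Of the 6 member genes tested 0 met the criteria, against 100 of all 2240 (4.46%). None of the 6 had an unadjusted p under 0.05 by edgeR, limma or DESeq2, against 4.6%, 5.22% and 1.7% of all host genes, and the smallest adjusted p in edgeR was 0.674. The normalized reads of the diets did not overlap in 0 of the 6, against 214 of the 2240 genes (9.55%). The median log2 fold change (HFD over chow diet) of the 6 genes was -0.32 as fitted. It was -0.20 with Tgfbr1, which had no HFD read, set at the floor of 3 reads over the group. Both medians use the fitted values of Smad2 and Bmpr1a, whose HFD totals of 2 reads each were also under the floor, so they are rough. The median of all host genes tested was -0.17, and it was 0.02 when libraries were scaled by their total back-spliced reads alone, so the choice of scaling moved the centre by more than the fold changes of Acvr2a and Tgfbr2.

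**Figure D1:**
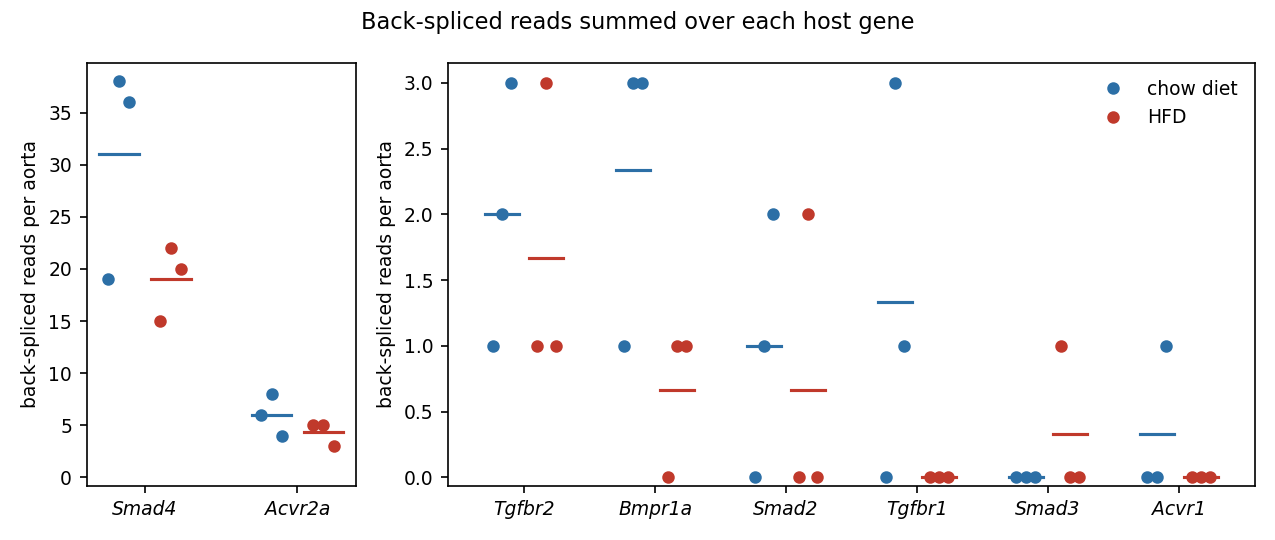
Back-spliced reads per aorta summed over all entries of each host gene (vertical axes, raw reads; the left panel has its own scale), for the 3 chow diet aortas (blue) and the 3 HFD aortas (red), with horizontal lines at group means. Smad4 lies at 15 to 38 reads, Acvr2a at 3 to 8, and no aorta has more than 3 reads of any of the other 6 genes.

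Among the type II receptors, Acvr2a binds activins and several BMPs. Its one entry, mmu_circ_0001017, had 5, 5 and 3 reads across HFD aortas and 6, 8 and 4 across chow-fed aortas. Reads were found in every aorta and the ranges of the diets overlapped. Normalized to a common library, the summed reads were 4.91 ± 1.35 under HFD and 5.45 ± 2.07 under chow feeding (SD, n = 3 each). The log2 fold change was -0.14 (SE 0.76, 95% interval -1.64 to 1.35, edgeR adjusted p = 0.953), and its sign turned to 0.05 when libraries were scaled by total back-spliced reads alone. The interval spans a fall of more than 2-fold and a rise of more than 2-fold, so a change of that size was not excluded in either direction. The intron before exon 2 is 55462 nt long and exceeds that of 93.3% of all entries placed on transcripts, and the intron after exon 4 is 16824 nt.

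Tgfbr2, the type II receptor that binds TGF-beta itself, had 5 entries. Their sum was 1, 3 and 1 reads under HFD and 1, 2 and 3 under chow feeding, so each aorta had at least 1 read and the groups overlapped. The log2 fold change was 0.05 (SE 1.32, 95% interval -2.54 to 2.64, edgeR adjusted p = 0.987). The most-read join was the one printed above from exon 4 to exon 3. It was listed as 2 entries whose genomic starts lie 1 base apart: mmu_circ_0001853 had 1, 1 and 2 chow diet reads and no HFD read, and circRNA8015 had 3 reads in HFD aorta 2 alone. Summed, this circle had 0, 3 and 0 reads under HFD and 1, 1 and 2 under chow feeding, with a log2 fold change of -0.11 (SE 1.82, edgeR adjusted p = 0.972). The other 3 entries had 1 or 2 reads each and ended at exon 5 or 6, towards the kinase-coding end of the gene.

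The type I receptors were sparser. Bmpr1a, a main receptor for BMP ligands, had 4 entries that ran from exon 2 or 3 to exon 5, from exon 6 to 7 and from exon 8 to 10, between chr14:34422560 and chr14:34460612 on the minus strand. Its sum was 0, 1 and 1 reads under HFD and 1, 3 and 3 under chow feeding. The group totals of 2 and 7 reads gave a ratio of 0.418 per back-spliced read, with an exact 95% counting interval of 0.0423 to 2.19. That interval covers counting error of the pooled reads and not the spread between aortas. The edgeR log2 fold change was -1.35 (SE 1.54, 95% interval -4.37 to 1.66, adjusted p = 0.953), with the HFD total under the floor of 3 reads. The most-read of its circles, circRNA3367 (exons 3 to 5), had 2 and 2 reads in chow diet aortas 2 and 3 and none elsewhere, whereas mmu_circ_0005220 (exons 6 to 7) had 1 and 1 in HFD aortas 2 and 3 alone. At 1 to 2 reads per aorta neither pattern passed the test of single entries (edgeR adjusted p = 0.577 for both).

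Tgfbr1, the type I receptor of TGF-beta, had reads in chow diet aortas 2 and 3 alone, 3 and 1 in number. With no HFD read and 4 chow diet reads its total lay next to the floor of 3 reads and no fold change is given (edgeR adjusted p = 0.674). The circle printed above took 2 of the 4 reads, circRNA3809 (exons 2 to 8) 1 and circRNA5446 (exons 4 to 5) 1. Acvr1, a type I receptor for BMPs and activins, had 1 read of circRNA5612 in chow diet aorta 3. Over the 5 receptor genes with entries, the reads summed to 6, 9 and 5 under HFD and 8, 16 and 12 under chow feeding.

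Among the Smads, back-spliced reads were concentrated in Smad4, and Smad2, Smad3 and Smad5 had 5 reads or fewer each. Smad3 had 1 read, of mmu_circ_0015778, in HFD aorta 1. Smad2 had 0, 2 and 0 reads under HFD and 0, 1 and 2 under chow feeding from 3 entries, and no fold change is given since both groups were at or under the floor (edgeR adjusted p = 0.953). Both of its placed circles, circRNA7546 and circRNA3511, ended at exon 5, and the genomic end of the third, circRNA6028, matched no annotated exon end. Smad5, a BMP-regulated Smad, had no entry, and its close relative Smad1 had 17 reads in 3 entries (3, 5 and 2 under HFD and 5, 1 and 1 under chow feeding, with a log2 fold change of 0.80, SE 1.09 and edgeR adjusted p = 0.953).

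Smad4, the partner shared by both arms of the pathway, had 15, 22 and 20 back-spliced reads across HFD aortas and 19, 38 and 36 across chow-fed aortas. In raw reads chow diet aorta 1 lay within the HFD range, and after normalization it lay below that range. After normalization the sums were 21.3 ± 2.66 and 27.9 ± 9.86 (SD, n = 3 each), and the log2 fold change was -0.38 (SE 0.35, 95% interval -1.08 to 0.31, edgeR adjusted p = 0.907). Of the member genes Smad4 had the narrowest interval, which excluded a rise of more than 1 on the log2 scale.

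The circles of Smad4 shared a small set of ends. The gene lies on chromosome 18 (73639009 to 73703780, minus strand), and the exons are counted along ENSMUST00000025393.13, which has 12 exons and begins its coding sequence in exon 2. Back-splicing to the start of exon 2 accounted for 132 of the 150 reads (88.0%), while circles that began at exon 5 had 11 reads and those that began at exon 6 or exon 9 had 3 each. On the other side of the join, 97 reads came from the end of exon 4, 26 from the end of exon 8 and 26 from the end of exon 10. The remaining read belonged to ciRNA64, an intronic circRNA within intron 3, in chow diet aorta 1. Every exon between 2 and 10 was thus held by some circle, and exon 1 and the last pair of exons by none.

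**Figure D2:**
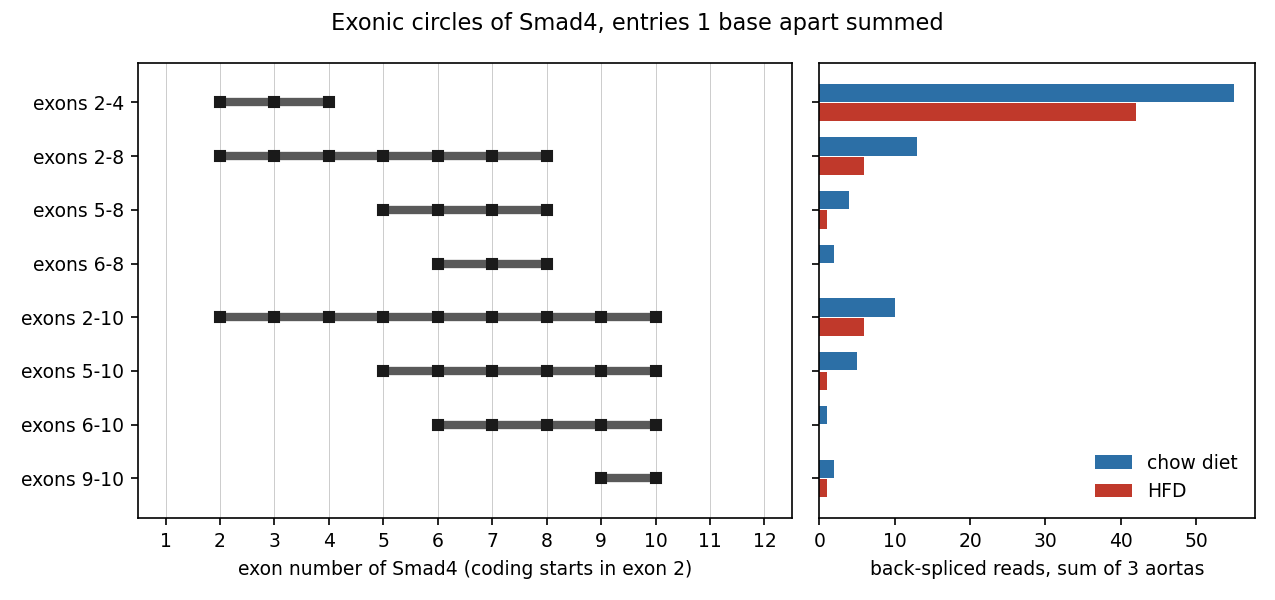
Exonic circles of Smad4, 1 row for each pair of first and last exon, with the exons they hold (left, squares, exon number on the horizontal axis) and their back-spliced reads summed over the 3 aortas of each diet (right, raw reads, chow diet blue and HFD red). The circle of exons 2 to 4 carries 97 of the reads, and every circle ends at exon 4, 8 or 10.

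The circle of exons 2 to 4, circRNA2535, held 64.7% of the Smad4 reads and ranked 20th of the 10023 entries. Its exons sum to 582 nt, of which 128 nt precede the start codon, and it covers residues 1 to 152 of 551. It had 10, 18 and 14 reads under HFD and 8, 19 and 28 under chow feeding, so the lowest and the highest aorta were both under chow feeding. The log2 fold change was -0.07 (SE 0.47, 95% interval -0.98 to 0.85, edgeR adjusted p = 0.951), and it was 0.14 with scaling by total back-spliced reads. The flanking introns are 25390 nt and 12293 nt, longer than those of 80.9% and 70.8% of all placed entries.

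Outside its leading circle Smad4 had fewer raw reads under HFD, although no circle passed the test. The other 11 entries summed to 5, 4 and 6 reads under HFD and 11, 19 and 8 under chow feeding, or 5.71 ± 1.60 and 11.5 ± 5.31 after normalization (SD, n = 3 each). The highest normalized HFD value was 7.26 and the lowest chow diet value 6.96, so the groups overlapped. The split of the gene into its leading circle and the rest, and by last exon, was chosen after these values had been seen and carries no test. Circles ending at exon 8 had 2, 2 and 3 reads against 5, 8 and 6, and here the highest normalized HFD value (3.63) lay below the lowest chow diet value (4.62). Over all host genes tested, 9.55% did not overlap. Those ending at exon 10 had 3, 2 and 3 against 5, 11 and 2. The leading circle made up 72.8% ± 7.96 of the Smad4 reads under HFD and 56.6% ± 18.7 under chow feeding (SD, n = 3 each), a difference smaller than the spread of the chow diet group.

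Some single entries of Smad4 showed diet patterns that changed when neighbouring entries were read together. The join from exon 8 to exon 2 was listed as mmu_circ_0007495, with 0, 2 and 2 reads under HFD and 0, 0 and 4 under chow feeding, and as circRNA2534, which starts 1 base further in, with 2, 0 and 0 against 3, 6 and 0. No aorta had reads of both. Their sum of 2, 2 and 2 reads against 3, 6 and 4 was present in every aorta, with a log2 fold change of -0.71 (SE 1.02, edgeR adjusted p = 0.955). The join from exon 10 to exon 2 was likewise split between mmu_circ_0007492 (3, 2 and 1 against 4, 0 and 2) and circRNA4522, which held the 4 reads of chow diet aorta 2. Summed, it had 3, 2 and 1 reads under HFD and 4, 4 and 2 under chow feeding, with a log2 fold change of -0.34 (SE 1.09, edgeR adjusted p = 0.955). The circle of exons 5 to 8 (mmu_circ_0007494 and circRNA5946) had 0, 0 and 1 against 0, 2 and 2 reads, and circRNA1052 (exons 5 to 10), which had no neighbour, 0, 0 and 1 against 1, 4 and 0.

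**Figure D3:**
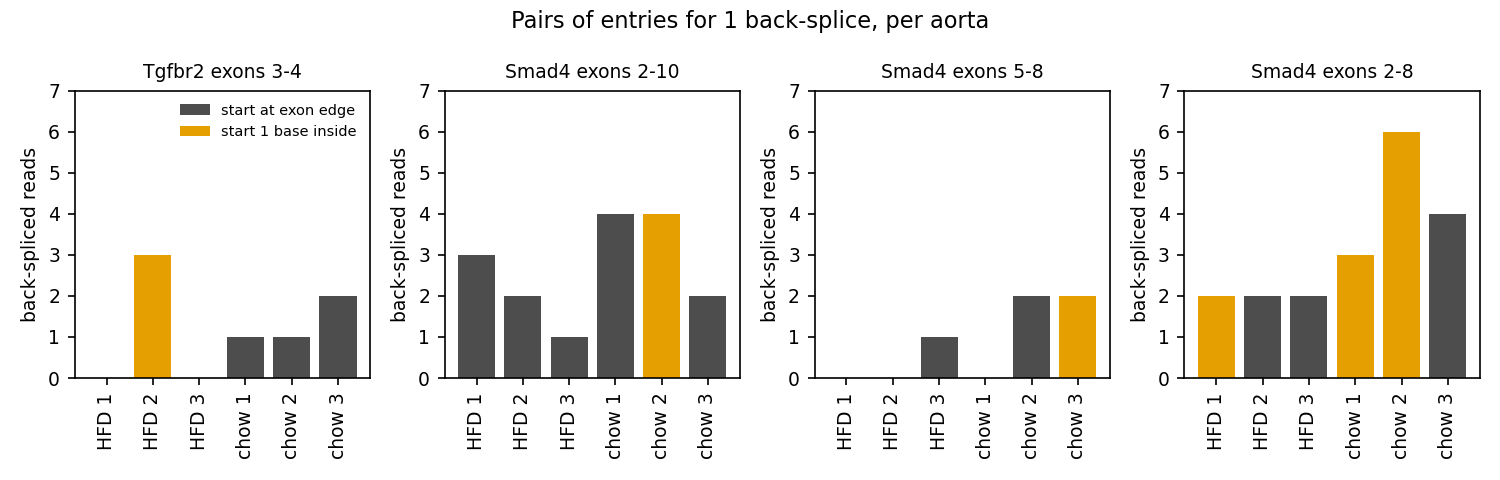
Back-spliced reads per aorta (vertical axis, raw reads) of the 4 member circles listed as 2 entries whose genomic starts differ by 1 base, stacked by entry: start at the exon edge in grey, start 1 base inside the exon in orange. No bar holds both colours, so every aorta assigned all reads of a join to a single entry.

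This held beyond the pathway. Such pairs numbered 475 over all entries, and in 468 of them (98.5%) no aorta had reads of both entries. Of the 212 pairs with reads in at least 4 aortas, 211 behaved in this way. The leading Smad4 circle also started 1 base inside exon 4, in all 6 aortas and with no neighbouring entry. On the minus strand this base belongs to the end of the last exon, the side from which the back-splice leaves.

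Single entries, like the sums, gave no member past the criteria. Of the 13 member entries with reads in at least 2 aortas 0 met the criteria, against 104 of the 2564 entries tested (4.06%), and none had an unadjusted p under 0.05 by edgeR, DESeq2 or limma (smallest edgeR p 0.114, adjusted 0.577). With entries 1 base apart summed, the 30 entries became 26 circles, and 0 of the 12 tested met the criteria, against 90 of 2646 (3.4%). Of the 30 entries 16 had reads under chow feeding alone (53.3%, against 47.3% of all entries), 5 under HFD alone (16.7%, against 33.4%) and 9 on both. Entries 1 base apart were counted singly here, for the members and for all entries. The Tgfbr2 join split between mmu_circ_0001853 and circRNA8015 thus adds 1 entry to each diet alone, although the join had reads on both. The chow diet libraries were the deeper ones and also held more back-spliced reads per unit of depth. Reads in 1 aorta alone were found for 17 of the 30 entries (56.7%, against 74.4% of all).

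In structure the member circles had a median length close to that of all circles and a longer median intron before them. Of 29 exonic member entries, 28 could be placed on the exons of a transcript, and 20 of these held coding sequence alone. Joined exons ran from 197 nt (Bmpr1a, exons 6 to 7) to 1433 nt (Smad4, exons 2 to 10), with a median of 612 nt against 549 nt over all placed entries. The intron before the circle had a median of 22344 nt against 7517 nt, and the intron after it 6963 nt against 6082 nt. Counted along the transcript listed for each entry, the first exon of the circle was exon 2 in 12 of the 28 (42.9%, against 28.9% of all placed entries). Among the 12 is circRNA8015 of Tgfbr2, whose join is numbered from exon 3 of another transcript above. The 12 also hold both entries of the Smad4 joins of exons 2 to 8 and exons 2 to 10. All values of this paragraph are descriptions with no test, since entries of 1 gene share exons and introns, and 11 of the placed entries come from Smad4.

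Across the rest of the pathway, the most back-spliced reads came from Ltbp1 (126) and Zeb1 (94). Of the other Ltbp genes, Ltbp2 had 1 read, Ltbp4 had 2 and Ltbp3 had no entry. The lists of genes below differ in size and were not compared by a test. Of 86 further genes 33 had entries, 120 in number with 450 reads. These were 1 of 16 ligands (Tgfb1, 1 read), 4 of 12 other receptors and coreceptors, 1 of 4 other Smads (Smad1), 8 of 21 ligand traps and latency genes and 19 of 33 regulators. Of the 23 tested in edgeR 0 met the criteria, against 4.46% of all host genes. An unadjusted p under 0.05 was found for 1 of the 23 by each tool, Ltbp1 by edgeR and limma and Zeb1 by DESeq2. As a share this is 4.35%, against 4.6% (edgeR), 5.22% (limma) and 1.7% (DESeq2) of all host genes. The median log2 fold change was -0.03, against -0.17 for all host genes tested.

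None of the 15 regulators tested passed the criteria. As a list their reads numbered 30, 55 and 43 under HFD and 45, 45 and 39 under chow feeding, or 0.833% ± 0.175 and 0.582% ± 0.0551 of the libraries (SD, n = 3 each). The lowest HFD share (0.639%) lay just above the highest chow diet share (0.630%), the median log2 fold change of the 15 was -0.03, and Zeb1, described below, held 53 of the HFD reads and 41 of the chow diet reads. Without Zeb1 the shares were 0.256%, 0.640% and 0.554% under HFD and 0.409%, 0.420% and 0.361% under chow feeding, so the groups overlapped. The list carries no test.

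Ltbp1, which binds latent TGF-beta to the extracellular matrix, had the most reads of these genes, from 24 entries. It had 16, 12 and 9 reads under HFD and 36, 20 and 33 under chow feeding. In raw reads no HFD aorta reached the lowest chow diet aorta, but the chow diet libraries held more back-spliced reads. The normalized values overlapped, with means of 14.1 ± 4.80 and 26.4 ± 6.78 (SD, n = 3 each). The log2 fold change was -0.91 (SE 0.39, 95% interval -1.68 to -0.14, edgeR adjusted p = 0.674). This missed both the fold criterion and the correction over all genes. The unadjusted p was 0.05 or more in 6 of 15 alternatives: without HFD aorta 2 or 3, without chow diet aorta 1 or 3, with DESeq2 and with scaling by total reads alone, where the log2 fold change was -0.77 to -0.68. Smooth muscle marker genes as a list moved in the same direction as given above, and their part in this value was not tested.

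Zeb1, a zinc-finger repressor that partners with Smads, was the one pathway gene of the 23 whose normalized reads did not overlap between diets (4.35%, against 9.55% of all host genes tested). It had 18, 19 and 16 reads under HFD and 14, 15 and 12 under chow feeding, or 20.0 ± 1.81 and 12.3 ± 1.95 after normalization (SD, n = 3 each). The log2 fold change was 0.69 (SE 0.43, 95% interval -0.14 to 1.53, edgeR adjusted p = 0.674). Zfyve9, which anchors Smad2 and Smad3 near the receptors, had 3, 10 and 6 reads against 7, 6 and 4 (log2 fold change 0.46, SE 0.70, or 0.14 without HFD aorta 2 and 0.87 without HFD aorta 1). Trim33, a ubiquitin ligase that acts on Smad4, had 2, 4 and 2 against 6, 3 and 2 reads. The coactivator Ep300 had 2, 6 and 1 against 1, 5 and 3 reads. For these 3 genes the edgeR adjusted p was 0.953. Rnf111, a ubiquitin ligase that targets inhibitors of the pathway, tied with Ep300 at 18 reads, with 0, 6 and 2 against 2, 3 and 5 (log2 fold change -0.026, SE 1.10, edgeR adjusted p = 0.990).

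**Figure D4:**
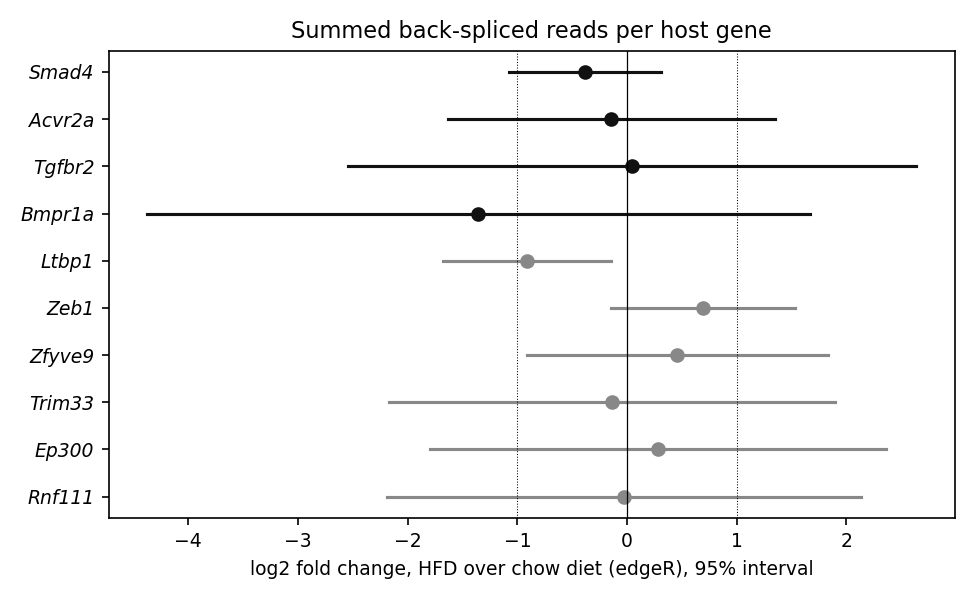
Log2 fold change of summed back-spliced reads (HFD over chow diet, edgeR, points) with 95% intervals (lines). Black marks the 4 member genes with the most reads, of which Bmpr1a had 2 HFD reads, under the floor of 3. Grey marks the 6 further pathway genes with the most reads, of which the last pair is tied. Dotted lines lie at the fold criterion of 1 in each direction. The interval of Ltbp1 alone leaves out 0 in this fit, and those of Tgfbr2 and Bmpr1a span more than 5 log2 units.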

How the data were processed

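The authors trimmed the reads of 6 aorta libraries with cutadapt and called back-splices with TopHat-Fusion, CIRCexplorer and CIRI, per the study's methods and the submitters' notes. Versions and how the callers were merged are not given in the sources used here. RNase R treatment and rRNA depletion are both described, without saying whether both apply to these libraries. The deposited table holds raw counts of back-spliced reads and SRPBM, a signal for which the authors divided each count by a depth per library. Its columns of fold changes and p-values were not used. The build is not named in the sources used here. Coordinates matched GRCm38 exon edges in GENCODE vM21 (97.5% of exonic entries placed). All 1224 Ensembl host names were matched to symbols.

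Counts, per entry and summed per host gene, were fitted over the whole table with edgeR 4.0.16 (R 4.3.3, TMM, quasi-likelihood test, reads in at least 2 aortas), with Benjamini-Hochberg adjustment. DESeq2 1.42.0 and limma 3.58.1 (log2 of SRPBM plus 13.6) were alternatives, with other scalings and filters, a replicate block, leaving out each aorta, and summing entries 1 or 2 bases apart. Code was tested on simulated data. Named items are all members, circles with reads in at least 3 aortas or the most reads of a gene, and the 5 other pathway genes with most reads (6 with a tie). Members and lists were chosen with earlier results of these data known. Libraries of a diet differed by more than counting error (chi-square of their counts per entry 2.24 to 3.35 per degree of freedom). The split of joins between entries 1 base apart can add to this value, so it cannot alone show that the samples were separate. Groups of 3 were not tested for outlying samples. With 3 against 3, an exact permutation test cannot go below p = 0.1.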

Additional observations from a re-analysis of the deposited data

How the results depend on the processing

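Member genes meeting the criteria numbered 0 under every alternative, and member entries numbered 0 except under 2: 1 of 7 tested met them when reads in at least 3 aortas were required (6.79% of all entries), and leaving out single aortas gave 0 to 1. Both times it was mmu_circ_0001853 of Tgfbr2 (without chow diet aorta 2, 1 of 8 tested, against 5.64% of all). Its 4 reads were all under chow feeding, so it passed the filters through that diet alone and its direction was fixed. Summed over all 6 aortas with its neighbour circRNA8015, which holds the 3 HFD reads, the circle did not meet the criteria (log2 fold change -0.11). There the single entry did not meet them either, and the sum was not fitted under these 2 alternatives. Other pathway genes numbered 0, or 0 to 1 with 1 aorta left out. Ltbp1 met the criteria without HFD aorta 1 (-1.09) or chow diet aorta 2 (-1.13), though leaving out any of the other 4 moved Ltbp1 to between -0.77 and -0.68. Bmper met them without HFD aorta 2. Its 3 reads were all under HFD, so it passed the filter through that diet alone and its direction was fixed. These calls are 1 of 22, 20 and 21 genes tested, against 5.72%, 4.15% and 3.72% of all host genes in the same fits. The member share had a log2 ratio of -0.19, -0.44 by the authors' depth and -0.46 to 0.03 with 1 aorta left out, the positive value without chow diet aorta 2.

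Replicate numbers did not pair the aortas (correlations of deviations -0.19 to 0.01 for same-numbered libraries), and with the replicate block 0 member entries and 0 member genes met the criteria, while circRNA2535 stood at 0.038. Over all entries the block gave 30 calls and DESeq2 23, of which 30 and 21 were among the 104, and over host genes 41 and 34, of which 40 and 32 were among the 100. Requiring at least 10 reads gave 49 calls at each level, of 608 entries (8.06%) and 881 genes (5.56%) tested.

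Of 281 alternative log2 fold changes 236 kept their sign and side, 41 changed sign and 4 passed the criteria. With DESeq2 the values were 0.034 for Acvr2a, 0.050 for mmu_circ_0001017, 0.11 for circRNA2535, 0.047 for Trim33 and 0.10 for Rnf111, and with library size alone 0.052, 0.071, 0.14, 0.054 and 0.15. Rnf111 was at 0.075 with at least 10 reads and at 0.0028 without intronic circRNAs. With limma Tgfbr2 was at -0.021 and circRNA2535 at 0.032. With entries 1 or 2 bases apart summed, mmu_circ_0007492 was at -0.34 and mmu_circ_0007495 at -0.71, since their neighbours held other aortas' reads. With 1 aorta left out, Tgfbr2 ran from -0.48 to 0.52, Acvr2a from -0.25 to 0.13, mmu_circ_0001017 from -0.39 to 0.069, mmu_circ_0007492 from -0.30 to 1.23, mmu_circ_0007495 from -0.29 to 3.66, circRNA2535 from -0.45 to 0.34, Zfyve9 from 0.14 to 0.87, Trim33 from -0.39 to 0.38, Ep300 from -0.51 to 0.85 and Rnf111 from -1.17 to 0.60. For the others the cause was not tested. Smad4 stayed below 0 throughout (-0.63 to -0.15). Intervals were wide for most of these genes: the 95% interval runs from -1.64 to 1.35 for Acvr2a with 31 reads and is wider for the members with fewer.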
